A study of Drosophila melanogaster with 9 samples.

Results

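The mitochondrial ribosome is the second protein-making machine of an animal cell, and the mRNA levels of 69 of its protein genes are described here in Drosophila melanogaster BG3 cells with and without Polyhomeotic (Ph) and in wing imaginal discs. The members were all genes with a platform symbol that starts with mRpL or mRpS and a number, read from probe sets that name 1 gene only. They make up 69 of the 11982 genes that could be named on the array in this way, 44 of the large subunit and 25 of the small subunit by symbol. Of 73 such symbols in the RefSeq gene table of Release 6 plus ISO1 MT, mRpL34, mRpL37, mRpL53 and mRpS10 were not analysed here. The rule for membership used the symbols and no measured value, although earlier results of these data were known when it was chosen. Each gene was read from 1 probe set. mRpL47 and mRpS11, the only members with more than 1, were read from the probe set with the greater average signal across the 9 arrays.

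Mitochondrial ribosomes translate the few mRNAs that the mitochondrial genome encodes, which are core subunits of the respiratory chain and the ATP synthase. Every protein of this ribosome is encoded in the nucleus, made in the cytosol and imported into the organelle, so its assembly depends on many nuclear genes at once. Some of these proteins descend from those of the bacterial ancestor of mitochondria, and others have no bacterial counterpart and are called mitochondria-specific here (43 and 26 members). The split was made by hand from knowledge of the mammalian ribosome after the values had been seen, and it serves as a description only.

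The arrays formed 3 groups of 3. Ph RNAi cells were BG3 cells, a male line from the larval central nervous system, after 5 days with 10 µg per well of dsRNA against sequence that is common to ph-p and ph-d, the paralogous genes for the Ph subunit of Polycomb repressive complex 1. Wing discs were taken from yw larvae late in the third instar, as pools of 12 to 15 discs of mixed sex per replicate. Mock RNAi cells were BG3 cells for which the labels give no dsRNA, so an effect of dsRNA as such and one of Ph loss cannot be told apart. All labelled RNA was prepared from 200 ng of total RNA, and the replicates are called biological in the labels without naming separate cultures, so the spread behind the p-values may be in part technical. Values are GCRMA log2 values, and the median over all probe sets lay between 2.21 and 2.23 in the 6 BG3 arrays and between 0.83 and 0.84 in the wing disc arrays. From this gap the wing disc arrays appear to have been normalized on their own. Log2 values were compared between Ph RNAi and Mock RNAi only, and wing discs were set beside Mock RNAi by percentiles within each array, where 100 marks the highest of the 11982 genes.

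The labelled cell types were checked with marker genes. In wing discs, the wing disc genes vg, nub, ap and Dll had mean log2 values of 8.85, 10.31, 9.25 and 7.37. In Mock RNAi cells, on another scale, they had 2.20, 1.86, 1.88 and 2.21. By percentile, the median of the 6 wing disc markers was 93.35 in wing discs, against 32.84 in Mock RNAi cells. The lowest of 6 wing disc markers had a wing disc mean of 2.26. The 3 fat body markers had median percentiles of 81.8, 53.0 and 44.4 in the wing disc arrays. In the Mock RNAi arrays these were 29.6, 31.2 and 36.9. For the 2 trachea markers they were 71.4, 72.9 and 71.45 in wing disc arrays, against 27.8, 23.0 and 24.9 in Mock RNAi arrays. The wing disc arrays thus differed in fat body signal, and the part of this in the members' percentiles was not tested. In Mock RNAi cells the neuronal RNA-binding protein gene elav had a mean of 6.69 and the glial genes moody and nrv2 means of 10.22 and 11.10, whereas the synaptic genes nSyb and brp were near the bottom of the scale at 2.09 and 2.24 and the neural precursor genes dpn and ase at 1.71 and 1.81. The lowest of 5 glia markers had a Mock RNAi mean of 1.85. The highest of 4 neuron markers stood at percentiles of 78.9, 81.7 and 81.5 in the wing disc arrays, against 60.7, 66.1 and 65.55 in the Mock RNAi arrays. The neuron markers thus did not set the cell line apart from wing discs. Of 5 hemocyte markers, srp and Pxn had means of 10.77 and 7.07 in Mock RNAi cells and the other 3 stayed near 1.8, and of 3 muscle precursor markers zfh1 had 9.81 and the other two stayed under 2.4. The glial regulator repo had a mean of 10.23 in Ph RNAi cells and 3.12 in Mock RNAi cells, and the neuronal and precursor gene pros 7.95 and 1.42 (limma with Benjamini-Hochberg adjustment, adjusted p = 6.29e-07 and 3.13e-06). At an adjusted p under 0.05 (limma), 3 of 5 glia, 2 of 6 neural precursor, 3 of 6 wing disc and 1 of 5 hemocyte markers were higher. So were 1 of 3 muscle precursor and 1 of 2 trachea markers, but 0 of 4 neuron and 0 of 3 fat body markers. No marker was lower, and 3.2% of all genes were higher. The rise was thus not particular to neural genes. In bulk samples a change in the share of a cell type and a change in the RNA of each cell cannot be told apart. No analysed row carried the symbol ph-p or ph-d alone, so the depletion itself was not checked.

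All 69 genes gave signal in the upper part of the scale in each of the 9 arrays. Their group means ran between log2 6.82 and 12.41 in Ph RNAi cells and between 6.68 and 12.67 in Mock RNAi cells, with medians of 9.75 and 10.02 over the 69 members. No member had a Mock RNAi mean below 4, a value that 53.8% of all genes stayed under. By percentile, the lowest and highest members stood at 64.9 and 97.7 in Ph RNAi cells, at 66.6 and 94.7 in wing discs, and at 64.3 and 98.5 in Mock RNAi cells. The median member stood at 87.4 in Ph RNAi cells, 81.3 in wing discs and 88.1 in Mock RNAi cells. A percentile places the signal of a probe set, and since probe sets bind with different strength, the order of members is not the order of their mRNA numbers.

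**Figure D1:**
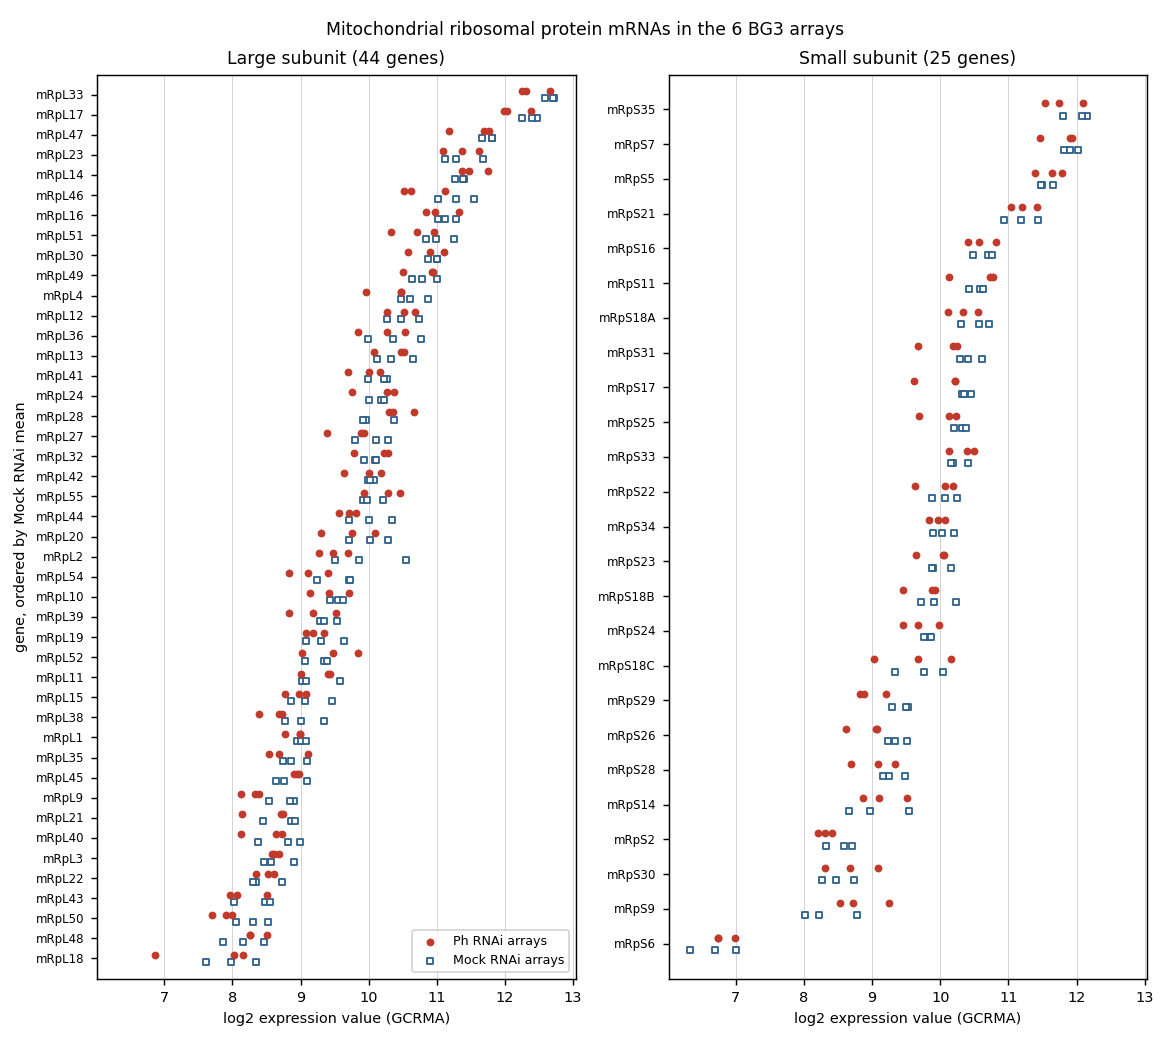
Log2 expression values (GCRMA, horizontal axis) of each member in the 3 Ph RNAi arrays (filled circles) and the 3 Mock RNAi arrays (open squares), large subunit on the left and small subunit on the right, ordered by Mock RNAi mean. The circles and squares of a gene overlap for most members, and the genes keep their places along the scale between log2 6 and 13.

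The 3 members with the highest mean over all arrays were mRpL33, mRpL17 and mRpS7. mRpL33, a member with a bacterial counterpart, had log2 values of 12.66, 12.31 and 12.25 in Ph RNAi cells and 12.58, 12.72 and 12.70 in Mock RNAi cells. Its percentiles were 94.7, 94.6 and 94.8 in wing discs, against 98.3, 98.6 and 98.5 in Mock RNAi cells, the highest of the family in both. mRpL17, whose bacterial counterpart lies near the exit of the peptide tunnel, had 12.39, 12.03 and 11.98 in Ph RNAi cells and 12.47, 12.24 and 12.39 in Mock RNAi cells. mRpS7, whose bacterial counterpart organizes the head of the small subunit, had 11.90, 11.93 and 11.46 in Ph RNAi cells and 12.03, 11.82 and 11.90 in Mock RNAi cells. The arrays of both groups overlapped for all 3 genes.

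The 3 members with the lowest mean were mRpS6, mRpL18 and mRpS2. mRpS6, whose bacterial counterpart binds together with S18, had log2 values of 6.99, 6.74 and 6.74 in Ph RNAi cells and 7.003, 6.33 and 6.70 in Mock RNAi cells. mRpL18, related to the bacterial protein that binds the small RNA of the large subunit, had 8.16, 6.86 and 8.03 in Ph RNAi cells and 8.35, 7.61 and 7.98 in Mock RNAi cells. The second Ph RNAi array stood far below the others for this gene, which had the widest standard error of the family (0.36). mRpS2, a member with a bacterial counterpart, had 8.40, 8.31 and 8.20 in Ph RNAi cells and 8.70, 8.32 and 8.58 in Mock RNAi cells.

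The first question was whether depletion of Ph changed these genes. No member passed the test in either direction. With limma on the 6 BG3 arrays and Benjamini-Hochberg adjustment over all 11982 genes, 0 of 69 members were higher and 0 lower at an adjusted p under 0.05, where 3.2% of all genes were higher and 1.57% lower. The smallest adjusted p of a member was 0.222 (limma). At an unadjusted p under 0.05, 2 members were lower, mRpL46 and mRpS29, and 0 were higher, against 16.5% of all genes in either direction. No member changed by 2-fold or more, and the changes ran between -0.53 and 0.49 on the log2 scale, which corresponds to 1.45-fold lower and 1.41-fold higher in Ph RNAi cells.

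For each gene taken alone, the precision of the arrays bounds how large a missed change could be. The 95% interval of the change, from the moderated standard errors of 0.14 to 0.36, lay wholly within 2-fold for 66 of 69 members (95.7%), which was true of 79.3% of all genes and of 62.1% of genes with a BG3 mean above 4. The exceptions were mRpL18, whose interval reached down to -1.09, mRpL2, with a lower bound of -1.08, and mRpS9, with an upper bound of 1.11. These bounds hold for the deposited normalization only, since centring each array on its median moved every change by -0.18.

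**Figure D2:**
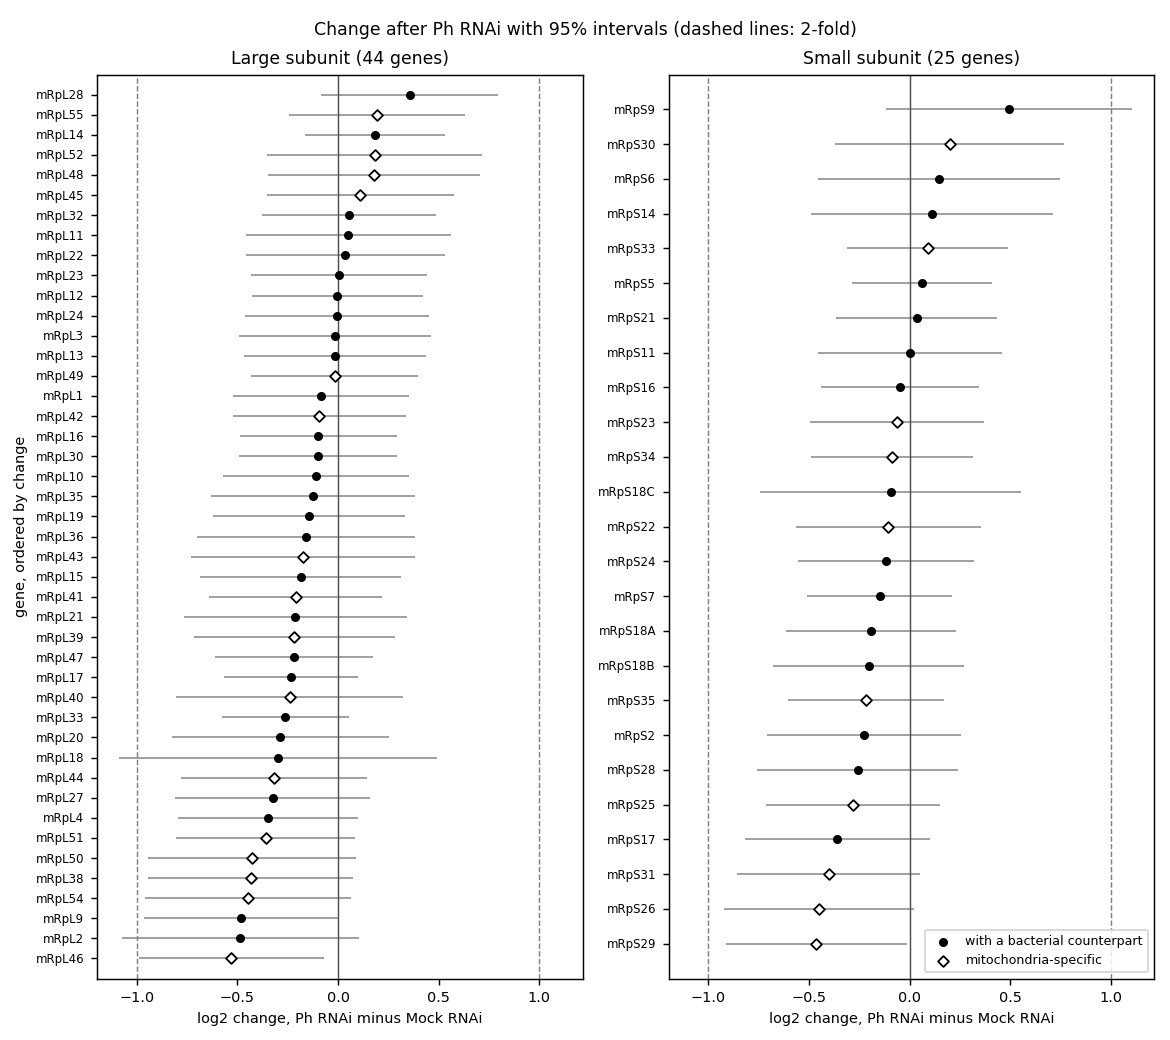
Log2 change (Ph RNAi minus Mock RNAi, horizontal axis) of each member with its 95% interval, large subunit left and small subunit right, filled circles for members with a bacterial counterpart and open diamonds for mitochondria-specific ones. The intervals of mRpL46 and mRpS29 end just short of 0, and those of mRpL18, mRpL2 and mRpS9 cross a dashed line at 2-fold.

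Within these bounds the changes leaned to lower values. Of the 69 members, 51 had a negative and 18 a positive change. Negative changes also outnumbered positive ones over all genes (6646 of 11982) and over genes with a BG3 mean above 4 (3344 of 5594). The median change was -0.12 over the members, -0.03 over all genes and -0.10 over genes with a BG3 mean above 4. The SD of the changes was 0.21 over the members and 0.66 over all genes. The large subunit had a median change of -0.15 and the small subunit one of -0.11. Members with a bacterial counterpart had a median of -0.11, and mitochondria-specific members one of -0.21. All 3 Ph RNAi values lay below all 3 Mock RNAi values for 8 members, mRpL4, mRpL9, mRpL38, mRpL50, mRpS17, mRpS26, mRpS29 and mRpS31, and above them for 0 members. Over all genes, 13.6% were apart in this way on the lower side and 9.91% on the higher side, and over genes with a BG3 mean above 4 the shares were 20.7% and 12.1%. The 8 of 69 members (11.6%) and the 0 of 69 were thus not above either background.

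The 5 most negative changes belonged to mRpL46, mRpL2, mRpL9, mRpS29 and mRpS26, none of which passed the test. mRpL46, a mitochondria-specific protein, had log2 values of 11.11, 10.62 and 10.51 in Ph RNAi cells and 11.54, 11.01 and 11.28 in Mock RNAi cells. The first Ph RNAi array lay within the Mock RNAi range and the other two below it, and the change was -0.53 ± 0.21 (SE, n = 3 arrays each, limma, adjusted p = 0.222). mRpL2, whose bacterial counterpart sits beside the peptidyl transferase centre, had 9.70, 9.48 and 9.28 in Ph RNAi cells and 10.55, 9.50 and 9.86 in Mock RNAi cells. The first Mock RNAi array stood apart from the rest for mRpL2, and its change was -0.49 ± 0.27 (SE, limma, adjusted p = 0.406) with that array and -0.20 without it.

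mRpL9, the counterpart of the elongated bacterial protein L9, had 8.39, 8.33 and 8.13 in Ph RNAi cells and 8.91, 8.53 and 8.85 in Mock RNAi cells, with no overlap. mRpS29, known in mammals as DAP3, a GTP-binding protein of the small subunit that has also been linked to cell death, had 8.89, 9.20 and 8.83 in Ph RNAi cells and 9.52, 9.29 and 9.49 in Mock RNAi cells. mRpS26, a mitochondria-specific protein of the small subunit, had 9.05, 9.06 and 8.62 in Ph RNAi cells and 9.23, 9.34 and 9.51 in Mock RNAi cells. The groups were apart for mRpS29 and mRpS26 as well, by small gaps. Their changes were -0.48, -0.46 and -0.45, and the adjusted p-values 0.304, 0.284 and 0.329 (limma).

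The 5 most positive changes belonged to mRpS9, mRpL28, mRpS30, mRpL55 and mRpL14, and the groups overlapped for each. mRpS9, whose bacterial counterpart reaches with its tail towards the tRNA in the peptidyl site, had 8.72, 8.53 and 9.25 in Ph RNAi cells and 8.77, 8.02 and 8.22 in Mock RNAi cells. Its change was 0.49 ± 0.28 (SE, limma, adjusted p = 0.415), and the third Ph RNAi array was the one above all Mock RNAi arrays. Without that array the change of mRpS9 was 0.29. mRpL28, with a bacterial counterpart, had 10.35, 10.67 and 10.29 in Ph RNAi cells and 10.37, 9.97 and 9.91 in Mock RNAi cells, a change of 0.36. mRpS30, which is built into the large subunit in mammals in spite of its name, had 8.68, 8.30 and 9.08 in Ph RNAi cells and 8.74, 8.47 and 8.26 in Mock RNAi cells. Its change of 0.20 was smaller than the SD of either group, and it lay between 0.00014 (without the third Ph RNAi array) and 0.39 (without the second) when 1 array was left out.

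mRpL55, a mitochondria-specific protein, had 10.46, 10.29 and 9.93 in Ph RNAi cells and 9.92, 9.97 and 10.21 in Mock RNAi cells. mRpL14, whose bacterial counterpart takes part in joining the subunits, had 11.76, 11.47 and 11.36 in Ph RNAi cells and 11.40, 11.26 and 11.39 in Mock RNAi cells. Their changes were 0.19 and 0.18, with intervals that included 0. Without the first Ph RNAi array they were 0.08 and 0.07, and without the third that of mRpL55 was 0.34. Centring each array on its median over all genes moved every change by -0.18, which leaves that of mRpL14 at -0.00093.

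mRpL12 and mRpL45 were added after their values were seen, and their small changes do not stand for those of the other members. mRpL12, which forms the flexible stalk that recruits elongation factors, had 10.67, 10.27 and 10.53 in Ph RNAi cells and 10.74, 10.27 and 10.48 in Mock RNAi cells, and its 95% interval ran between -0.43 and 0.42. mRpL45, which in mammals tethers the tunnel exit to the inner membrane, had a change of 0.11 with an interval between -0.35 and 0.57. For the pair of genes with a second probe set, the changes of the second and the first were -0.18 and -0.22 for mRpL47 and 0.06 and 0.00 for mRpS11. The probe set of mRpS18B is of the type that can bind transcripts of more than 1 gene, so its change of -0.20 may include other transcripts.

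The members moved together from array to array, and the third Ph RNAi array set most of the lean to lower values. Relative to the Mock RNAi mean of each gene, the median member lay at 0.0031 in the first Ph RNAi array, at -0.07 in the second and at -0.38 in the third. The Mock RNAi arrays lay at 0.13, -0.17 and 0.04. Over genes with a BG3 mean above 4, the medians were -0.05, -0.15 and -0.09 in Ph RNAi and 0.02, -0.03 and 0.02 in Mock RNAi, so the third Ph RNAi array was not generally low. It held the lowest of the 3 Ph RNAi values for 56 of 69 members (81.2%), and the first held it for 0, while over genes above 4 the third was lowest for 40.2%. The third Ph RNAi array lay below all Mock RNAi arrays for 51 members (73.9%), against 42.2% of genes above 4, and the first and second did so for 13 and 23 members (18.8% and 33.3%), fewer than the 31.7% and 45.2% of genes above 4.

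Without the third Ph RNAi array, the median change of the members was -0.01 where it was -0.12 with all arrays, and 0 members were called either way. The second Mock RNAi array held the lowest Mock RNAi value for 54 members (78.3%, against 34.0% of genes above 4). Oxidative phosphorylation subunits shared part of this pattern, with the third Ph RNAi array lowest for 51.3% and the second Mock RNAi array for 65.4% of 78 genes, and proteasome subunits had 35% and 70% of 40 genes. Of these 78 and 40 genes, 56 and 27 had a BG3 mean above 4, as all members had. The actin control, read as the 3' minus the 5' probe set on the log2 scale, was 2.03, 2.06 and 1.38 in the Ph RNAi arrays and 2.03, 2.26 and 1.73 in the Mock RNAi arrays. By this control the third Ph RNAi array had the smallest and the second Mock RNAi array the largest difference of the 6. The GAPDH control gave 0.96, 0.97 and 0.77 in Ph RNAi and 0.82, 1.01 and 0.71 in Mock RNAi, and eIF-4a gave 3.52, 3.46 and 2.93 in Ph RNAi and 2.76, 3.45 and 2.88 in Mock RNAi, so the third Ph RNAi array was the lowest of its group by all 3 controls but not the lowest of the 6 by these. The part of RNA or labelling quality in the members' shifts was not tested.

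**Figure D3:**
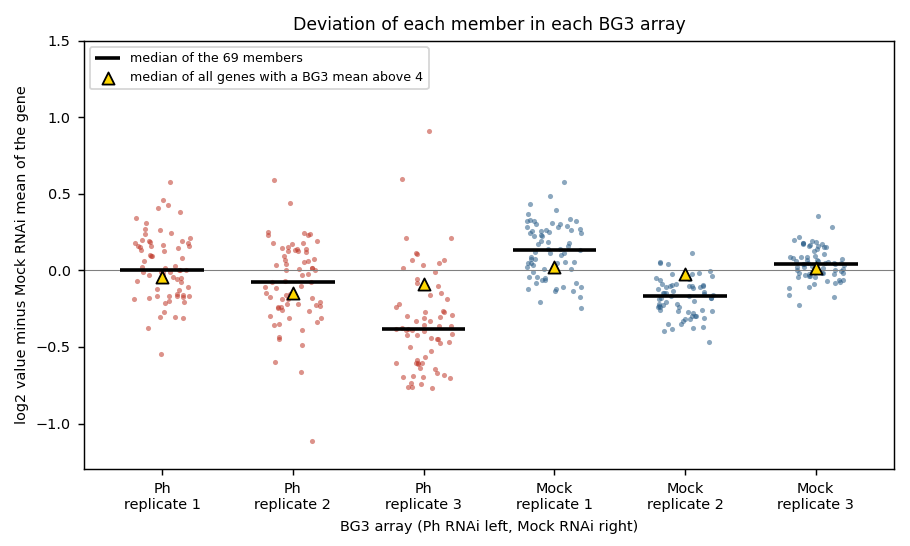
Deviation of each of the 69 members (points, vertical axis in log2 units) from its Mock RNAi mean in each BG3 array, Ph RNAi left and Mock RNAi right. The bar of the median member lies at -0.38 in the third Ph RNAi array and between -0.17 and 0.13 in the other 5, while the triangles, medians of all genes with a BG3 mean above 4, stay between -0.15 and 0.02.

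The genes that work with the mitochondrial ribosome were read from lists of its factors and partners. None of these lists had a gene that passed the test after Ph RNAi in either direction (0 higher and 0 lower of each). The other small subunit genes tko and bonsai, the Drosophila genes for the S12 and S15 proteins, had changes of 0.08 and -0.09. The 8 translation factor genes, which start, extend and recycle mitochondrial protein synthesis, had a median change of -0.06, and the 15 genes of the tRNA synthetase list, mitochondrial enzymes that charge tRNAs and their relative Slimp, one of -0.15. For the 14 import genes, which bring the proteins through both membranes, the median was -0.01. The 9 genes for mitochondrial DNA maintenance and transcription had the lowest median, -0.34. Among them the transcription termination factor relatives mTerf5 and mTerf3 had changes of -0.66 each (limma, adjusted p = 0.182 and 0.270), and these were the only ones of the 9 with an unadjusted p under 0.05.

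The 78 genes of the respiratory chain and ATP synthase, whose products join those made by the mitochondrial ribosome, had a median change of -0.06. Cytosolic ribosomal proteins, 40 genes, had one of -0.09 and proteasome subunits, 40 genes, one of 0.11. Of these 78, 40 and 40 genes, only 56, 32 and 27 had a BG3 mean above 4. The medians of these lists thus include genes near the bottom of the scale, unlike that of the members. Regulators linked to growth or mitochondrial genes had larger changes that did not pass the test either (4 genes). Dref, a transcription factor of proliferation genes, had a change of -0.71, the growth kinase gene S6k one of 0.67, foxo, a transcription factor of the insulin pathway, one of -0.79, and ewg, the relative of mammalian NRF-1, one of -0.33 (limma, adjusted p between 0.162 and 0.673). Other regulators on that list were not analysed here.

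The genes beside the members along the chromosomes were also examined. In the RefSeq order, 2 of 69 members (2.9%) lay next to a gene that passed the test, against 6.56% of all placed genes. mRpL13 lies beside tup, a LIM-homeobox gene with a change of 4.61 (limma, adjusted p = 2.92e-06). mRpL13 itself had a change of -0.02, with 10.47, 10.53 and 10.08 in Ph RNAi cells and 10.13, 10.33 and 10.66 in Mock RNAi cells. mRpL45 lies beside loco, a glial regulator of G protein signalling with a change of 1.34, and itself had the change of 0.11 given above. No member was the direct neighbour of another.

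The other comparison set the cell line beside a developing tissue. In wing discs most members held a lower place among all genes than in Mock RNAi cells. The median member stood at percentiles of 81.3, 80.2 and 81.9 in the wing disc arrays, against 88.7, 86.8 and 88.1 in the Mock RNAi arrays, so the arrays of the groups did not overlap. The difference between the group medians had a median of -6.0 points over the members, where it was -0.70 over all genes and -2.76 over the 4107 genes in the range of Mock RNAi percentiles that the members span. In Ph RNAi cells the median member stood at 88.3, 87.6 and 85.1. The Mock RNAi arrays are the same in both comparisons.

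Taken gene by gene, the 3 wing disc percentiles lay below all 3 Mock RNAi percentiles for 55 members and above them for 6, and they overlapped for 8. Of all genes, 32.9% were lower and 29.2% higher in this sense, and of the genes in the members' range 53.1% were lower and 31.3% higher. When the medians also had to differ by at least 10 points, 15 members were lower in wing discs and 3 were higher. The background of this count was 16.8% lower and 16.1% higher over all genes, and 25.9% lower and 11.4% higher over the genes in the members' range. The 15 lower members, 21.7%, were thus near the background, and the 3 higher members, 4.35%, below it. Without the second Mock RNAi array 1 member was higher, where 17.8% of all genes were. Ranked among the 5585 genes with a mean above 4 alone, 38 members were lower and 5 higher, where 31.1% of those genes were lower and 30.0% higher, and 39.5% and 23.4% of those in the members' range. With that reference the lower members were more frequent than in either background, so the reading of this count depends on the genes ranked. These are counts with no test, since the wing disc arrays appear to have been normalized on their own.

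**Figure D4:**
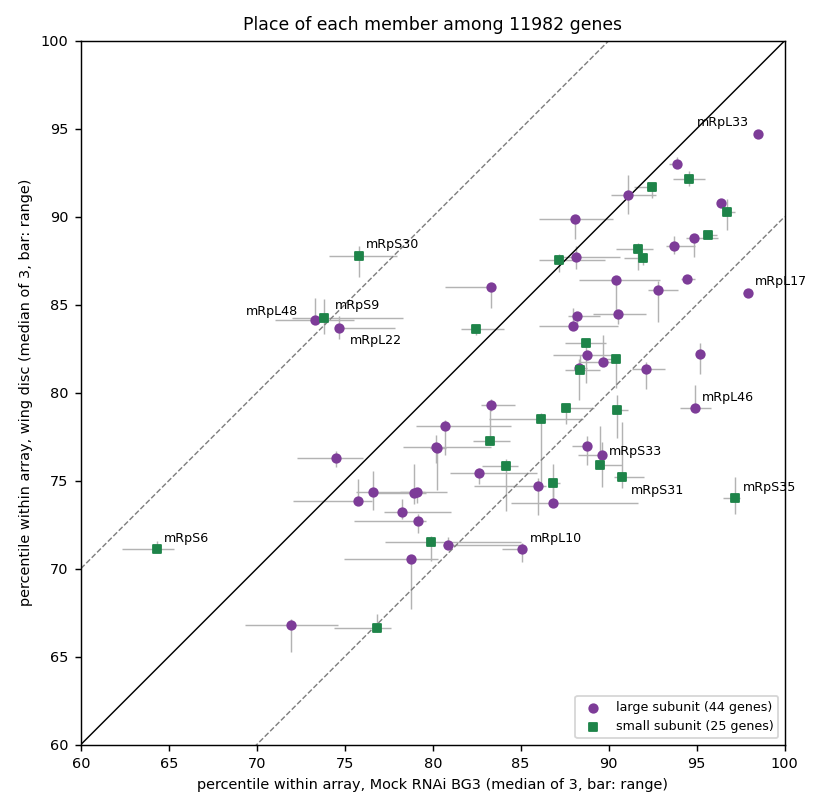
Percentile of each member within the wing disc arrays (vertical axis) and the Mock RNAi arrays (horizontal axis), medians of 3 with bars for the range, circles for the large and squares for the small subunit. Most points lie below the solid line of equal percentiles, mRpS35 lies farthest below the lower dashed line (10 points), and mRpS30, mRpL48 and mRpS9 lie above the upper one.

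mRpS35 had by far the lowest place in wing discs relative to its place in BG3 cells. This mitochondria-specific protein of the small subunit had percentiles of 75.2, 73.1 and 74.0 in wing discs, against 97.5, 96.5 and 97.2 in Mock RNAi cells, a difference of -23.2 points. It was the member with the third highest percentile in Mock RNAi cells and took place 58 of 69 in wing discs. In Ph RNAi cells its percentiles were 97.2, 96.3 and 95.7, close to those of Mock RNAi. It was the single member that differed by at least 20 points.

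The next 4 were mRpL46, mRpS31, mRpL10 and mRpS33, with differences of -15.8, -15.6, -14.0 and -13.6 points. mRpL46 had percentiles of 79.1, 79.0 and 80.4 in wing discs, against 95.8, 94.0 and 94.9 in Mock RNAi cells. mRpS31, a mitochondria-specific protein, had 75.2, 74.6 and 78.4 in wing discs, against 92.0, 90.3 and 90.7 in Mock RNAi cells. mRpL10, the base to which the stalk protein of mRpL12 binds, had 71.4, 70.4 and 71.1 in wing discs, against 85.1, 83.9 and 85.3 in Mock RNAi cells. The stalk gene mRpL12 did not share this difference, with 92.4, 90.2 and 91.2 in wing discs, against 92.7, 90.2 and 91.1 in Mock RNAi cells. mRpS33, a mitochondria-specific protein, had 75.7, 75.9 and 78.1 in wing discs, against 89.5, 89.4 and 90.8 in Mock RNAi cells. mRpL17, second in Mock RNAi cells, was lower in wing discs by 12.2 points, with 85.9, 85.5 and 85.7 there.

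At the other end, mRpS30, mRpL48 and mRpS9 held higher places in wing discs, by 11.99, 10.8 and 10.4 points. mRpS30 had percentiles of 88.3, 86.6 and 87.8 in wing discs, against 78.0, 75.8 and 74.1 in Mock RNAi cells. mRpL48, a mitochondria-specific protein, had 85.4, 84.0 and 84.1 in wing discs, against 75.5, 71.0 and 73.3 in Mock RNAi cells. mRpS9 had 85.3, 83.3 and 84.2 in wing discs, against 78.3, 72.0 and 73.8 in Mock RNAi cells. All 3 genes were apart in every array. mRpL22, which lines the peptide tunnel in bacteria, followed with 9.01 points, at 84.4, 83.1 and 83.7 in wing discs, against 77.9, 74.7 and 74.5 in Mock RNAi cells. mRpS6 came next with 6.8 points, at 71.1, 71.6 and 71.1 in wing discs, against 65.3, 62.3 and 64.3 in Mock RNAi cells, where it had the lowest percentile of the family.

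The order of the members was kept more closely within the cell line than between tissues. The Ph RNAi and Mock RNAi arrays appear to have been normalized together. Spearman's rho of the median percentiles over the 69 members was 0.98 between Ph RNAi and Mock RNAi and 0.61 between wing disc and Mock RNAi. Each value is a description over genes that share arrays and probe sets. The median SD of the members between replicates was 0.26 in Ph RNAi cells, 0.09 in wing discs and 0.20 in Mock RNAi cells on the log2 scale. In that order it was 0.29, 0.09 and 0.23 over genes with a BG3 mean above 4. Over all genes it was 0.19, 0.09 and 0.18. The second wing disc array held the lowest wing disc value for 63 of 69 members (91.3%, against 45.9% of genes with a BG3 mean above 4).

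Other gene groups had places of their own. Respiratory chain and ATP synthase subunits stood at a median percentile of 94.5 in Ph RNAi cells, 91.3 in wing discs and 94.6 in Mock RNAi cells, and cytosolic ribosomal proteins at 99.7, 99.8 and 99.7 in that order. Proteasome subunits stood at 92.1 in Ph RNAi cells, 95.4 in wing discs and 89.1 in Mock RNAi cells, a higher place in wing discs than in Mock RNAi cells. These lists include the genes near the bottom of the scale that were counted above. The lists of translation factors, mitochondrial DNA maintenance and transcription, and tRNA synthetases were lower in wing discs, as the members were. Their median differences were -7.52, -5.42 and -4.27 points in that order, beside -6.0 for the members and -1.34 for import genes. On the same measure, respiratory chain and ATP synthase subunits had -0.63, cytosolic ribosomal proteins 0.02 and proteasome subunits 2.33 points. The small subunit genes tko and bonsai did not share the lower place as a pair, with differences of -3.40 and 7.29 points and a median of 1.95. The 3' minus 5' difference of actin was 3.12, 3.14 and 3.34 in the wing disc arrays, against 2.03, 2.26 and 1.73 in the Mock RNAi arrays, and that of eIF-4a was between 4.85 and 6.95 in wing discs, against 2.76 to 3.45 in Mock RNAi cells. The part of this difference in the members' places was not tested, and tissue and normalization cannot be told apart in these arrays.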

How the data were processed

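Gene expression was measured on 9 Affymetrix Drosophila Genome 2.0 arrays. The deposited table gives log2 values for each probe set, which the authors made with GCRMA (version and settings not given in the sources used here), a method that corrects background by probe sequence and equalizes distributions between arrays. Of 18952 rows, 183 control rows and 1 blank row were left out, and 18768 probe sets remained. The platform table names 1 gene for 13647 of them, several for 402 and none for 4719. Only the first kind was used, 1 probe set a gene (11982 genes). Of these probe sets 13544 matched a RefSeq gene number, with 0 symbols changed.

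Ph RNAi was tested against Mock RNAi with limma 3.58.1 in R 4.3.3 (lmFit and eBayes with trend, two-sided, no covariate, 6 BG3 arrays), with Benjamini-Hochberg adjustment over all genes and calls at an adjusted p under 0.05. The study's methods name no test for expression. Simulated data with known changes served to check the fit. Depth has no meaning for arrays, and their number, 3 a group, limits the precision. The members and all lists were chosen with earlier results of these data known. Named members were the 5 largest changes in each direction, the 5 largest percentile differences in each direction, and the 3 highest and 3 lowest means; mRpL12, mRpL13 and mRpL45 were added after their values were seen. Genes whose percentiles follow the family were not sought, because the 9 arrays appear to fall into separately normalized blocks. The pattern list for the proteasome was narrowed once to drop a gene that is no proteasome subunit. Alternatives were leaving out each array, no variance trend, median centring, quantile normalization, a filter on dim genes, the mean of a gene's probe sets, a replicate block and other references or thresholds for percentiles.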

Additional observations from a re-analysis of the deposited data

How the results depend on the processing

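Under all 12 alternatives to the limma fit, 0 members were called higher and 0 lower, with a smallest adjusted p (limma) between 0.0797 and 0.429. Over all genes, 188 were called lower, against 507 with median centring and between 88 and 158 with one array left out, and 384 higher, against 266 to 378 with one array left out. Without one array the median change of the members ran between -0.22 and -0.01, the second value without the third Ph RNAi array; with median centring it was -0.31, where all genes had -0.21 and 15 members were lower at an unadjusted p under 0.05. Median centring moved every change by -0.18 alike, which by itself puts mRpL14 at -0.00093. Of 216 list counts under alternatives, 2 were not 0, both 1 cytosolic ribosomal protein gene lower, without the first Mock RNAi array and with median centring. The labels do not say whether equal replicate numbers pair the samples. Correlations of same-numbered deviations were 0.23, 0.21 and -0.24, which does not settle it. With a replicate block 503 of all genes were called higher and 263 lower, with 0 and 0 members. Ranked among all probe sets, the median member stood at 90.0 (Ph RNAi), 85.3 (wing disc) and 90.6 (Mock RNAi), and among genes with a mean above 4 at 73.0, 60.7 and 74.5 in that order; with the mean of a gene's probe sets it stood at 82.8 in wing discs. Members lower and higher in wing discs by 10 points numbered 5 and 0 among all probe sets, 38 and 5 among genes above 4, and between 13 and 17 and between 1 and 3 with one array left out (1 higher without the second Mock RNAi array). With limits of 5 and 20 points, chosen after seeing the data, they numbered 40 and 5, and 1 and 0. The median member had a lower place in wing discs than in Mock RNAi cells under each reference.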
